A study of Mus musculus with 4 samples.

Results

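The collagen genes of the mouse were followed in the otic vesicle, in wild-type embryos and in embryos mutant for Meis2. The members were the protein-coding genes whose symbol has the form of a collagen alpha chain (Col, a number, a, a number), and 44 of the 34866 genes in the table matched. The family was chosen because most of its genes stood higher in the mutant libraries, so the values of the 2 genotypes are given as a description and no test of the members is made. Of the 44 genes, 32 had a mean of at least 1 TPM (transcript abundance scaled for length and to the same total in each library) over the 4 libraries, the level above which genes were tested, and 12 lay below it.

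The tissue was the otic vesicle, the epithelial sac that gives rise to the inner ear, taken at embryonic day 11.5 from C57/BL6 mice. The wild type had 2 libraries, WT 1 and WT 2, and so had the Meis2 mutant, KO 1 and KO 2. Pairs of values are given in that order, replicate 1 first. The allele, the Cre driver if any, and the number of embryos or vesicles per library were not given in the sources used here. No label says that the libraries come from separate animals, so p-values measure only how far these libraries differ, and that spread may be technical. Meis2 encodes a TALE-class homeodomain transcription factor.

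Meis2 transcript stood at 79.0 and 88.7 TPM in WT and at 73.2 and 76.6 TPM in KO. A gene-level value does not show whether an exon is missing, so it does not check the genotype labels. All 12 markers of otic epithelium listed for this check were above 1 TPM on average, and their summed level was 1697 and 1533 TPM in WT and 1262 and 1356 TPM in KO. Markers of the tissue around the vesicle were present as well. The 15 periotic mesenchyme markers summed to 630 and 531 TPM in WT and to 751 and 579 TPM in KO, with KO 1 the highest library and WT 2 the lowest. The depth of the libraries is unknown, because TPM keeps no read count. In such bulk samples, fewer cells of a type and less RNA per cell cannot be told apart.

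Collagens are secreted or membrane-bound proteins whose alpha chains wind into a triple helix. Each turn of the helix needs a glycine at a fixed spacing, which gives the chains their Gly-X-Y repeat. Fibrillar collagens form the cables of connective tissue and cartilage, type IV collagen forms the sheet of the basement membrane under epithelia and around vessels, and the fibril-associated collagens with interrupted helices (FACIT) decorate the fibrils. In the developing ear, type II collagen is made by the otic epithelium as well as by the periotic mesenchyme that forms the cartilage capsule.

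The repeat can be read directly in the coding sequence, since every glycine codon begins with GG. The longest annotated coding sequence of each gene was scanned for runs in which a GGN codon recurs at every step of 9 bases. All 44 members held a run of at least 20 repeats, against 20 other genes among the 21440 coding genes scanned, and 0.299% of all coding genes reached that length. The stretches below show 90 coding bases each, with the GGN codons in capitals. They were chosen to show an unbroken fibrillar helix (Col2a1 and Col1a2), a FACIT chain (Col12a1), the abundant short chain Col26a1 and the end of the longest run of a basement membrane chain (Col4a1).
Col2a1: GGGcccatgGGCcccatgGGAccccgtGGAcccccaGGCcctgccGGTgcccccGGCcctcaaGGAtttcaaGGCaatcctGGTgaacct
Col1a2: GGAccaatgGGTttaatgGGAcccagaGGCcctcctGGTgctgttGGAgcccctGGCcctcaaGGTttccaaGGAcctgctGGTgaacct
Col12a1: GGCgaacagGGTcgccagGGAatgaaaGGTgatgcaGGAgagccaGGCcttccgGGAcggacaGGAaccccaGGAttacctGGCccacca
Col26a1: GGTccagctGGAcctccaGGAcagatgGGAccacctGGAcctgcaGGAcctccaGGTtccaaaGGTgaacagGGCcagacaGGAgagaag
Col4a1: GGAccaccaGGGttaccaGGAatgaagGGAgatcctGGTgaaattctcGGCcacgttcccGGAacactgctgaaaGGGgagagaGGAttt
The sequences are from GENCODE M21 transcripts (GRCm38) and read 5′ to 3′ on the coding strand. In the first 4 stretches all 10 repeats keep the spacing of 9 bases. In Col4a1 the spacing holds over the first 5 GGN codons and then breaks, and it resumes at the end of the stretch.

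The classes differed in how long and how broken this repeat is. Col3a1 had the longest run of all members, 344 repeats, and Col1a1, Col1a2 and Col2a1 had 338, 339 and 339. Among fibrillar genes, Col24a1 and Col27a1 were shorter, with 216 and 217. The type IX chains shared a longest run of 113 repeats, Col4a1 had 23 separate runs of which the longest was 40, and Col26a1 was shortest with 23. In Col12a1, whose protein is mostly made of other domains, 8.22% of the codons lay in such runs, against 73.4% in Col2a1. The exon structure follows the same unit. Of the internal coding exons of the fibrillar genes 48.6% were exactly 54 bases long, against 4.23% in the type IV genes and 0.445% in other coding genes, and 83.9% were a multiple of 9 bases long, against 13.7% in other coding genes. The 3 genes of the short-chain network class have no internal coding exon and are not in this count.

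Collagen genes were among the abundant transcripts of these vesicles. Of the 44 genes, 8 had a mean of at least 100 TPM, 18 lay between 10 and 100, 6 between 1 and 10, and 12 below 1. The 3 highest, Col2a1, Col3a1 and Col26a1, made up 44.8% of the summed collagen level. Ranked by mean level among the 14496 genes tested, Col2a1 was number 233, Col3a1 number 433 and Col26a1 number 862. The plot of all members by library shows that the spread between genes is far larger than that between libraries.

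**Figure D1:**
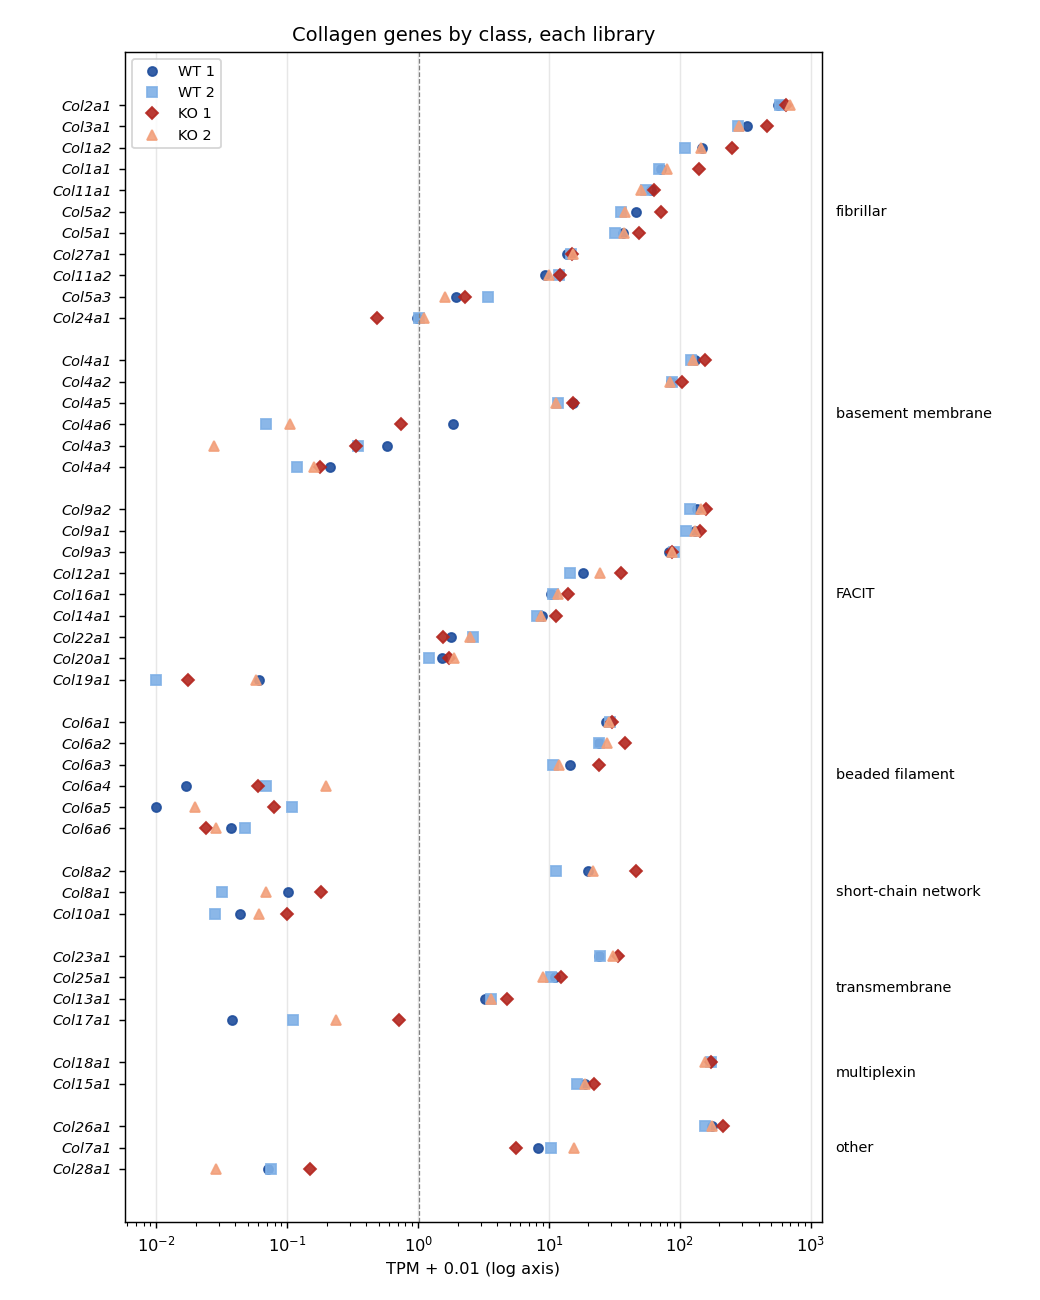
Level of each of the 44 collagen genes in each library (TPM + 0.01, log axis), grouped by class and ordered by mean level within a class. The dashed line marks 1 TPM, and the values run from 0 to the 693 TPM of Col2a1 in KO 2.

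The summed collagen level was 2398 and 2239 TPM in WT and 3055 and 2488 TPM in KO. Both KO libraries lay above both WT libraries, with KO 1 the highest. With median-of-ratios scaling the sums were 2453 and 2242 in WT and 3048 and 2433 in KO, so KO 2 then fell just below WT 1. The WT mean was 2319 ± 112.5 TPM (SD, n = 2). The KO mean was 2771 ± 401 TPM (SD, n = 2), and the 2 KO libraries lay further apart than the 2 means. Fibrillar genes held 53.1% to 56.5% of the sum in every library, the FACIT genes 14.7% to 16.6% and the type IV genes 8.94% to 9.88%. The short-chain genes held 0.51% in WT 2 and 1.51% in KO 1. The summed mesenchyme markers given above were also highest in KO 1 and lowest in WT 2, and their part in the collagen sum was not tested.

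**Figure D2:**
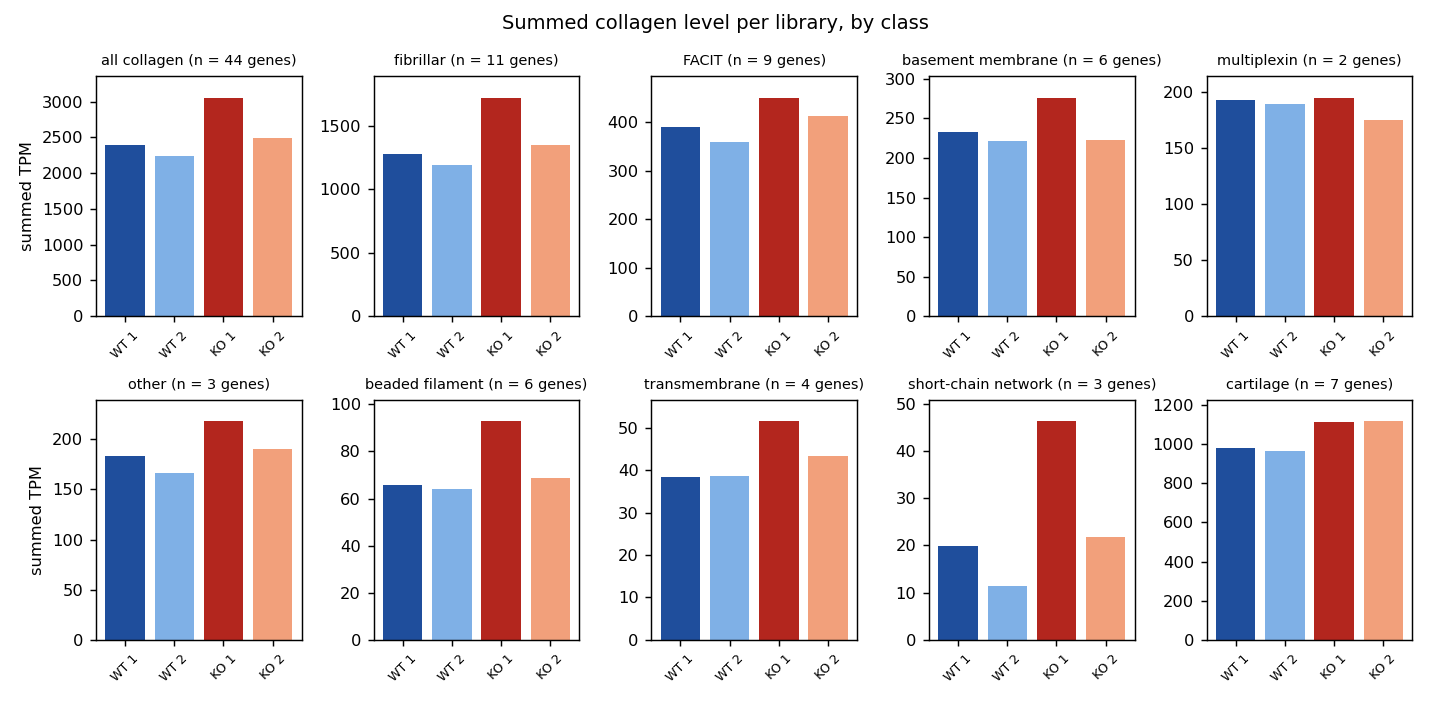
Summed TPM of the collagen genes in each library, for all 44 and by class (bars, axis from 0, 1 library each). The cartilage panel repeats genes of the fibrillar, FACIT and short-chain classes. KO 1 is the highest library in every panel but cartilage, where the 2 KO libraries stand at 1113 and 1117 TPM.

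Of the 32 members above 1 TPM, 26 had a higher mean log2(TPM + 1) in KO and 6 a lower one. Over all 14496 genes tested, 61.6% were higher in KO. With median-of-ratios scaling of the libraries the same counts were 24 of 32 members and 50.8% of all genes, and Col7a1 and Col9a3 changed sign. The median difference of the 32 (KO minus WT, log2(TPM + 1) scale) was 0.22, against 0.03 for all genes tested. On this scale changes of low genes are understated. Both KO libraries lay above both WT libraries for 13 of the 32 members, and both lay below for 1, where 19.2% and 10.5% of all genes tested did so. After the same scaling the 13 members became 9, and the share of all genes 13.6%. A log2 difference of at least 0.5 was seen in 4 members, Col8a2, Col12a1, Col1a2 and Col1a1, and in 2.55% of all genes tested. The members were picked for this contrast, so nothing is read from these counts.

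The difference was not spread evenly over the libraries. KO 1 was the highest of the 4 libraries for 24 of the 32 members, against 28.7% of all genes tested, and WT 2 was the lowest for 16, against 28.1%. KO 1 exceeded WT 1 for 29 members, with a median difference of 0.27, where 57.9% of all genes did so. KO 2 exceeded WT 2 for 22 members, with a median of 0.11 (59.4% of all genes), and WT 1 for 18 members, with a median of 0.05 (57.4% of all genes). Within the mutant genotype, KO 1 lay above KO 2 for 26 members, against 47.8% of all genes, with a median gap of 0.30. WT 1 lay above WT 2 for 20 members, against 47.0% of all genes, with a median gap of 0.09. In 24 of the 32 members the 2 KO libraries lay further apart than the 2 genotype means. Without KO 1 the median was 0.08, with 22 of 32 members higher, and without KO 2 it was 0.31.

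**Figure D3:**
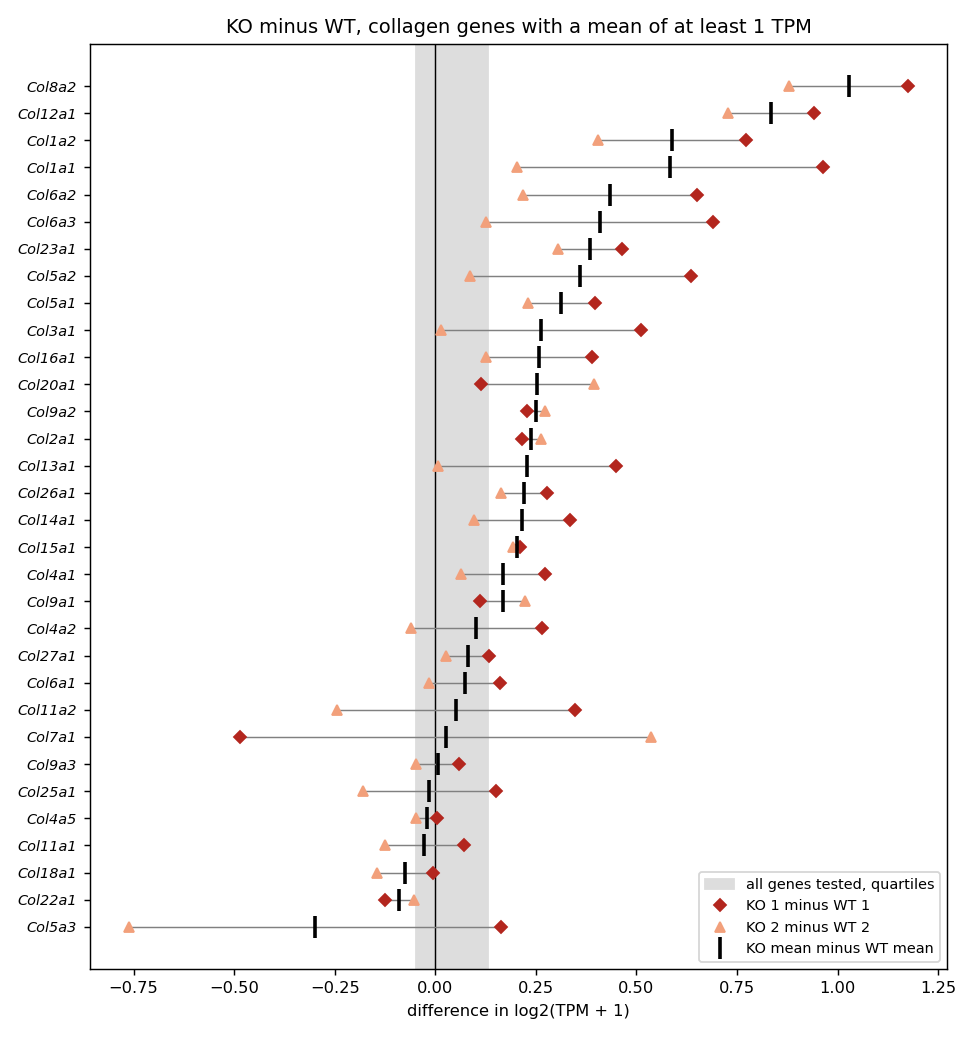
Difference in log2(TPM + 1) for the 32 collagen genes averaging 1 TPM or more: KO 1 minus WT 1 (diamonds), KO 2 minus WT 2 (triangles) and the difference of the genotype means (bars). The grey band spans the quartiles of all genes tested, -0.05 to 0.13. Col8a2, Col12a1, Col1a2 and Col1a1 lie to its right in both numbered pairs, as do others such as Col2a1, Col9a2 and Col23a1. Col1a1 lies further right in the pair numbered 1 (0.96) than in the pair numbered 2 (0.20). The numbers are not a known pairing. KO 2 minus WT 1 was 0.12 for Col8a2, 0.41 for Col12a1, -0.02 for Col1a2 and 0.15 for Col1a1.

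The fibrillar class, with 11 genes of which 10 were above 1 TPM, had 8 higher and 2 lower, and a median of 0.25 that was 0.0028 without KO 1. Col2a1 (ENSMUSG00000022483.17, chromosome 15, 97975602 to 98004695), the main collagen of cartilage, was at 562 and 578 TPM in WT and at 652 and 693 TPM in KO. The genotypes did not overlap, KO 2 was the highest library here, and the log2 difference was 0.24. Col3a1 (chromosome 1, 45311538 to 45349706), a collagen of loose connective tissue and vessel walls, was at 327 and 280 TPM in WT and at 467 and 283 TPM in KO. Only KO 1 stood out for this gene, and KO 2 lay between the WT libraries.

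Type I collagen, the main fibril of skin and bone, differed more than the other abundant fibrillar chains over all 4 libraries. That order rested on KO 1, since without it Col2a1 differed by 0.28, more than either type I chain. Col1a2 (ENSMUSG00000029661.16, chromosome 6, 4504814 to 4541544) was at 147 and 109 TPM in WT and at 251 and 145 TPM in KO, a difference of 0.59. KO 2 lay just below WT 1, so the genotypes overlapped, and without KO 1 the difference was 0.19. Col1a1 (ENSMUSG00000001506.10, chromosome 11, 94936224 to 94953042) was at 71.7 and 68.8 TPM in WT and at 141 and 79.4 TPM in KO, a difference of 0.58 with no overlap. Most of it came from KO 1, and without that library the difference was 0.17.

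Type V collagen nucleates the fibrils of type I. Col5a2 was at 46.0 and 35.5 TPM in WT and at 72.1 and 37.8 TPM in KO, a difference of 0.36 with overlap. Col5a1 was at 36.9 and 31.8 TPM in WT and at 48.9 and 37.4 TPM in KO, a difference of 0.31. Its lowest KO library was just above its highest WT library, and without KO 1 the difference was 0.12. Col5a3, the rarest tested chain of this type, had the lowest difference of all members tested, -0.30, from 1.92 and 3.38 TPM in WT and 2.27 and 1.58 TPM in KO. The 2 genotypes overlapped, and the pair numbered 1 differed by 0.16 while the pair numbered 2 differed by -0.76.

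Type XI collagen, which sits inside type II fibrils, stood close to its wild-type level. Col11a1 was at 60.0 and 54.8 TPM in WT and at 63.2 and 50.2 TPM in KO, a difference of -0.03. Col11a2 was at 9.27 and 11.9 TPM in WT and at 12.1 and 9.91 TPM in KO, a difference of 0.05 that was -0.0051 with quantile normalization. For both genes the genotypes overlapped. Col27a1, a fibrillar gene of cartilage, was at 13.6 and 14.8 TPM in WT and at 15.1 TPM in both KO libraries, a difference of 0.08. It was not counted in the cartilage set described below.

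Type IV collagen showed smaller differences than the fibrillar class. Of its 6 genes 3 were above 1 TPM, 2 of these higher and 1 lower in KO, with a median of 0.10 that was -0.04 without KO 1. Col4a1 (ENSMUSG00000031502.11, chromosome 8, 11198423 to 11312826) was at 130 and 122 TPM in WT and at 157 and 127 TPM in KO, a difference of 0.17. Col4a2 (ENSMUSG00000031503.13, chromosome 8, 11312805 to 11449287) was at 85.6 and 87.4 TPM in WT and at 103 and 83.8 TPM in KO, a difference of 0.10. In both genes KO 1 was the highest library. KO 2 lay between the WT libraries for Col4a1 and below both for Col4a2. Col4a5, on the X chromosome, was at 15.2 and 11.8 TPM in WT and at 15.2 and 11.4 TPM in KO, so the libraries numbered 1 were high in both genotypes.

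The 6 type IV genes lie in pairs on opposite strands that start near each other. The annotated starts of Col4a1 and Col4a2 are 21 bases apart and the gene models overlap by 22 bases, those of Col4a3 and Col4a4 are 72 bases apart, and those of Col4a5 and Col4a6 are 1309 bases apart. The ratio of Col4a1 to Col4a2 stayed between 1.39 and 1.52 over the 4 libraries. The other pairs were unequal. Col4a6 was at 1.85 and 0.059 TPM in WT and at 0.73 and 0.094 TPM in KO, well below Col4a5 and with both libraries numbered 1 above both numbered 2. Col4a3, a chain of mature kidney and cochlear basement membranes, was at 0.57 and 0.34 TPM in WT and at 0.32 and 0.018 TPM in KO, and Col4a4 was between 0.11 and 0.20 TPM in all libraries. No source used here says whether the counting used strand. Without it, reads from the 22 bases shared by Col4a1 and Col4a2 cannot be told apart, and the gene models of the other pairs do not overlap.

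The FACIT class had 9 genes, of which 8 were above 1 TPM, 7 of them higher and 1 lower in KO, with a median of 0.23. Its 3 most abundant genes encode type IX collagen, which coats type II fibrils. Col9a2 (chromosome 4, 121039385 to 121055322) was at 134 and 120 TPM in WT and at 157 and 145 TPM in KO, a difference of 0.25 without overlap. Col9a1 was at 132 and 111 TPM in WT and at 142 and 130 TPM in KO, a difference of 0.17 in which KO 2 fell just below WT 1. Col9a3 was at 82.9 and 90.5 TPM in WT and at 86.4 and 87.5 TPM in KO, a difference of 0.0058 that was negative with median-of-ratios scaling and with quantile normalization.

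Col12a1 (ENSMUSG00000032332.17, chromosome 9, 79598991 to 79718831), a FACIT of tendon and other dense connective tissue, had the second largest difference of the family. Its levels were 18.1 and 14.3 TPM in WT and 35.7 and 24.4 TPM in KO. Both KO libraries lay above both WT libraries, and the difference was 0.83, with 0.94 in the pair numbered 1 and 0.73 in the pair numbered 2. The related genes moved less. Col14a1 was at 8.82 and 8.03 TPM in WT and at 11.4 and 8.65 TPM in KO, Col16a1 at 10.4 and 10.7 TPM in WT and at 13.9 and 11.7 TPM in KO. In these 2 genes the differences were 0.22 and 0.26. Of the rarer genes, Col20a1 was at 1.50 and 1.19 TPM in WT and at 1.70 and 1.88 TPM in KO, and Col22a1, a collagen of tissue junctions, at 1.77 and 2.63 TPM in WT and at 1.54 and 2.50 TPM in KO. Col22a1 was the one tested FACIT gene lower in KO, with a difference of -0.09.

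Col8a2 (ENSMUSG00000056174.8, chromosome 4, 126286793 to 126314330) had the largest difference of the 32 members. Type VIII collagen is a short-chain collagen of the cornea and of vessel walls. Col8a2 was at 19.8 and 11.3 TPM in WT and at 46.0 and 21.6 TPM in KO. The WT mean was 15.5 ± 6.01 TPM (SD, n = 2) and the KO mean 33.8 ± 17.2 TPM (SD, n = 2). The genotypes did not overlap, but KO 2 exceeded WT 1 by a small margin. The log2 difference was 1.03, and it was 0.50 without KO 1, below the 0.57 of Col12a1 in that setting. Its partner chain Col8a1 was at most 0.17 TPM in any library, and Col10a1, the collagen of hypertrophic cartilage, at most 0.09 TPM.

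Type VI collagen forms beaded filaments near cells. Col6a2 was at 24.0 and 23.9 TPM in WT and at 38.2 and 28.0 TPM in KO, a difference of 0.43 without overlap. Col6a3 was at 14.4 and 10.7 TPM in WT and at 23.9 and 11.8 TPM in KO, a difference of 0.41 that was -0.07 without KO 1. Col6a1 was at 27.2 and 29.0 TPM in WT and at 30.5 and 28.7 TPM in KO, a difference of 0.07. The median of these 3 was 0.41, and it was 0.03 without KO 1 and 0.65 without KO 2. Col6a4, Col6a5 and Col6a6 lay between 0 and 0.19 TPM, and Col6a5 was listed at 0 in WT 1.

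Among the transmembrane collagens, Col23a1 was the most abundant and differed most evenly. It was at 24.1 and 24.6 TPM in WT and at 33.6 and 30.6 TPM in KO, a difference of 0.38 without overlap. Col25a1 was at 11.02 and 10.3 TPM in WT and at 12.3 and 8.98 TPM in KO, with the 2 KO libraries on either side of WT. Col13a1 was at 3.23 and 3.59 TPM in WT and at 4.77 and 3.61 TPM in KO, where KO 2 was nearly level with WT 2. Col17a1, the collagen of hemidesmosomes in the epidermis, stayed below the filter. Its levels were 0.028 and 0.10 TPM in WT and 0.71 and 0.23 TPM in KO. Krt5, a keratin of the basal epidermis, was at 3.28 TPM in KO 1 and at most 0.15 TPM elsewhere. It was picked from 7 markers of surface ectoderm and epidermis. Krt14, Trp63 and Grhl3, also below 1 TPM on average, were highest in KO 1 too. The 3 markers above 1 TPM were not: Perp was highest in WT 1 (12.9 TPM), Krt15 in WT 2 (2.78 TPM) and Tfap2c in KO 2 (1.38 TPM). The part of epidermis in the Col17a1 value was not tested.

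The multiplexins, collagens of basement membrane zones, went in both directions. Col18a1 (chromosome 10, 77052178 to 77166548), whose protein is the precursor of endostatin, was at 173.7 and 173.0 TPM in WT and at 172.9 and 156 TPM in KO. It was the only member above 1 TPM with both KO libraries below both WT libraries, by a difference of -0.08 that rested on KO 2. Col15a1 was at 18.9 and 16.5 TPM in WT and at 22.0 and 19.0 TPM in KO, a difference of 0.20, and KO 2 exceeded WT 1 by little.

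Col26a1 (ENSMUSG00000004415.15, chromosome 5, 136741759 to 136883209) was the third most abundant member, at 174.8 and 156 TPM in WT and at 212 and 174.7 TPM in KO. Its difference was 0.22, and KO 2 and WT 1 were level. Col7a1, the anchoring fibril collagen of the skin, followed another order of libraries. Its levels were 8.27 and 10.3 TPM in WT and 5.62 and 15.4 TPM in KO, so the 2 KO libraries were the lowest and the highest. The summed level of 11 neuron markers had the same order of libraries, 370 and 638 TPM in WT and 298 and 943 TPM in KO, and the part of neurons in the Col7a1 values was not tested.

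The remaining low genes were Col24a1, Col28a1 and Col19a1. Col24a1 was just under the filter, at 0.97 and 1.01 TPM in WT and at 0.47 and 1.09 TPM in KO. Col28a1 was between 0.019 and 0.14 TPM, and Col19a1 was at most 0.05 TPM and listed at 0 in WT 2. Of the 12 genes below 1 TPM, 7 were higher and 5 lower in KO.

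The genes of cartilage collagen, Col2a1, Col9a1, Col9a2, Col9a3, Col10a1, Col11a1 and Col11a2, cut across these classes. Their summed level was 979.9 and 967 TPM in WT and 1113 and 1117 TPM in KO. The KO mean was 1115 ± 2.22 TPM (SD, n = 2) and the WT mean 973 ± 9.12 TPM (SD, n = 2). Single chains were less even than the KO sums. Col2a1 was higher in KO 2, while Col9a1, Col9a2, Col11a1 and Col11a2 were higher in KO 1, and these offset each other. With median-of-ratios scaling the sums were 1002 and 968 in WT and 1111 and 1092 in KO, still without overlap. Col2a1 made most of that sum. The median difference of the 6 tested genes was 0.11, with 5 higher and 1 lower, and the genotypes overlapped for 4 of them. Among 11 other cartilage markers, 7 were above 1 TPM, 5 of them higher and 2 lower, also with both other scalings. Over all genes tested 61.6% were higher in KO, and 50.8% with median-of-ratios scaling. The 11 markers summed to 288 and 239 TPM in WT and to 275 and 254 TPM in KO, so both KO sums lay between the WT sums. The transcription factor gene Sox9 was at 149 and 108 TPM in WT and at 157 and 130 TPM in KO. Cnmd, which encodes chondromodulin, was lower, at 97.1 and 88.9 TPM in WT and at 65.4 and 80.4 TPM in KO (limma adjusted p = 1.00). Markers of more mature cartilage were low, with the proteoglycan gene Acan at no more than 0.36 TPM and Snorc listed at 0 in all 4 libraries.

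Chains that assemble into one protein can be compared through the ratio of their TPM values, which are per length. The ratio of Col1a1 to Col1a2 was between 0.49 and 0.63 in all libraries. It was thus below 1 throughout, although the type I trimer holds more of the chain that Col1a1 encodes. The ratio of Col9a1 to Col9a2 was between 0.89 and 0.98, and that of Col5a1 to Col5a2 between 0.68 and 0.99. Col11a1 exceeded Col11a2 by 4.60 to 6.47 times. Of the 15 ratios formed, 6 did not overlap between the genotypes, among them those of Col4a1 to Col4a2, Col9a1 to Col9a2, Col9a2 to Col9a3 and Col18a1 to Col15a1. Another was that of Col6a1 to Col6a2, at 1.13 and 1.21 in WT and 0.80 and 1.03 in KO. The remaining one was that of Col3a1 to Col1a2, at 2.23 and 2.57 in WT and 1.86 and 1.96 in KO. The ratio of Col2a1 to Col1a2, chains of different fibrils, ran from 2.59 in KO 1 to 5.31 in WT 2, with 4.80 in KO 2 inside the WT range. For Col4a1 to Col4a2 the gap was minute, at 1.51469 in WT 1 and 1.51479 in KO 2. Among single genes tested, 19.2% had both KO libraries above both WT libraries and 10.5% had both below. No such share was formed for ratios of other genes, so nothing is read from the 6 of 15. These ratios were formed after the single values were known and carry no test.

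**Figure D4:**
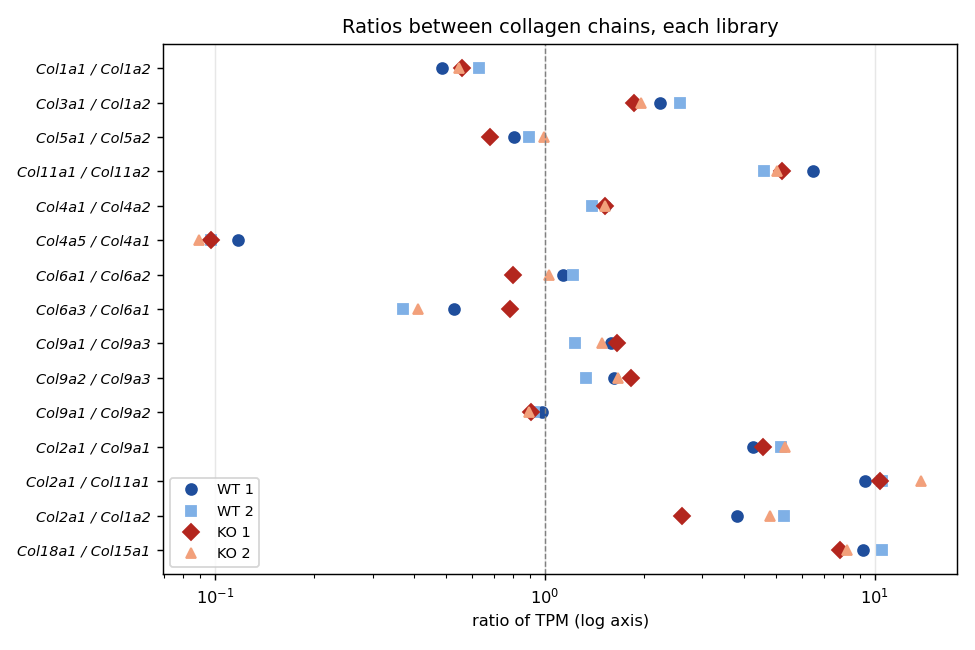
Ratio of the TPM values of 2 collagen chains in each library (log axis, dashed line at 1). The 4 libraries lie close together for Col4a1 to Col4a2 and for Col9a1 to Col9a2, and spread most for Col6a3 to Col6a1 (0.37 to 0.78) and Col2a1 to Col1a2 (2.59 to 5.31).

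Genes that build, bind and degrade collagen were described beside the family. Across all 14496 genes tested, limma called 0.0% of genes (0 genes) at an adjusted p below 0.05. At an unadjusted p below 0.05 there were 507 genes, 3.5% of those tested. No listed gene was among the calls at the adjusted threshold, so the differences below were not called. The counts of higher genes below stand against 61.6% of all genes tested, or 50.8% with median-of-ratios scaling. The lists are short and were not tested as sets.

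The biosynthesis list held 36 genes for the enzymes, chaperones, proteinases and crosslinkers of collagen, of which 33 were above 1 TPM. Of these 27 were higher and 6 lower in KO (25 and 8 with median-of-ratios scaling), with a median of 0.21, and 0 passed over all genes (5 at an unadjusted p below 0.05). The median was 0.12 among genes averaging 5 TPM or more, 0.0899 without WT 2 and 0.0915 without KO 1. The 3 most abundant overlapped between the genotypes. Serpinh1, which encodes the collagen chaperone HSP47, was at 716 and 669 TPM in WT and at 846 and 649 TPM in KO, a difference of 0.10 (SE 0.14). Ppib, a prolyl isomerase gene, was at 602 and 563 TPM in WT and at 602 and 556 TPM in KO. P4hb, a subunit of prolyl 4-hydroxylase, was at 398 and 367 TPM in WT and at 457 and 362 TPM in KO.

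The smallest p of this list belonged to P3h3, a member of the prolyl 3-hydroxylase family. P3h3 was at 44.2 and 43.9 TPM in WT and at 62.8 and 62.1 TPM in KO, a difference of 0.49 (SE 0.069, limma adjusted p = 1.00). Its values were alike within each genotype and did not overlap between them, which a choice by smallest p favours. Over all genes tested, both KO libraries lay above both WT libraries in 19.2%, and in 13.6% with median-of-ratios scaling. P4ha3, a catalytic subunit of prolyl 4-hydroxylase, was at 2.51 and 1.79 TPM in WT and at 6.24 and 4.08 TPM in KO, a difference of 0.95 (SE 0.26, limma adjusted p = 1.00). The crosslinking enzyme gene Lox, named after its values were seen, was at 1.00 and 0.79 TPM in WT and at 2.86 and 1.69 TPM in KO.

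Receptors for collagen were higher in 8 of 9 tested genes, with a median of 0.19 and 0 calls over all genes. Without KO 1 the median was 0.11 with 6 of 9 higher, and without WT 2 it was 0.15, also with 6 of 9 higher. Itgb1, the integrin beta 1 gene, was at 195 and 153 TPM in WT and at 206 and 172 TPM in KO. Mrc2, an endocytic collagen receptor, was at 51.2 and 51.0 TPM in WT and at 66.1 and 55.4 TPM in KO, and Ddr1, a collagen-binding kinase of epithelia, at 38.5 and 46.8 TPM in WT and at 42.6 and 42.2 TPM in KO. Itga11, a collagen-binding integrin subunit, was at 2.39 and 1.71 TPM in WT and at 3.88 and 3.06 TPM in KO (difference 0.55, SE 0.23, limma adjusted p = 1.00). Itga11 and Mrc2 had the smallest p of the list, and neither overlapped between genotypes, which that choice favours.

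Of 9 tested genes for the turnover of collagen, 8 were higher and 1 lower, with a median of 0.18 and 0 calls over all genes. The median was 0.053 without KO 1, 0.071 without WT 2, and 0.30 without WT 1 and without KO 2. Mmp14, a membrane-bound collagenase, was at 128 and 117 TPM in WT and at 124 and 127 TPM in KO. The gelatinase Mmp2 was at 88.0 and 66.5 TPM in WT and at 99.6 and 75.9 TPM in KO, and the inhibitor Timp2 at 51.7 and 43.5 TPM in WT and at 60.7 and 47.5 TPM in KO. In Mmp2 and Timp2 the libraries numbered 1 were higher in both genotypes. The inhibitor genes Timp1 and Timp3 had the smallest p of the list. Timp1 was at 13.1 and 12.3 TPM in WT and at 17.9 and 14.2 TPM in KO, and Timp3 at 25.5 and 20.7 TPM in WT and at 28.5 and 25.3 TPM in KO, with an adjusted p of 1.00 by limma for both.

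The partners of type IV collagen in the basement membrane were higher in 12 of 12 tested genes (11 of 12 with quantile normalization, 9 of 12 without WT 1), with a median of 0.27, 0 calls over all genes and 5 genes at an unadjusted p below 0.05. The 3 most abundant differed little: Agrn by 0.07, the peroxidasin gene Pxdn, whose product crosslinks type IV collagen, by 0.06, and the perlecan gene Hspg2 by 0.10. Lama4, a laminin chain of vessels and mesenchyme, was at 9.55 and 11.04 TPM in WT and at 16.5 and 14.3 TPM in KO, a difference of 0.54 (SE 0.14, limma adjusted p = 1.00). Lamc1 was at 27.1 and 34.3 TPM in WT and at 41.6 and 48.8 TPM in KO, a difference of 0.55 (SE 0.15, limma adjusted p = 1.00). Both laminin genes were picked by smallest p, which favours the lack of overlap seen between their genotypes. For Lamc1 the highest library was KO 2.

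**Figure D5:**
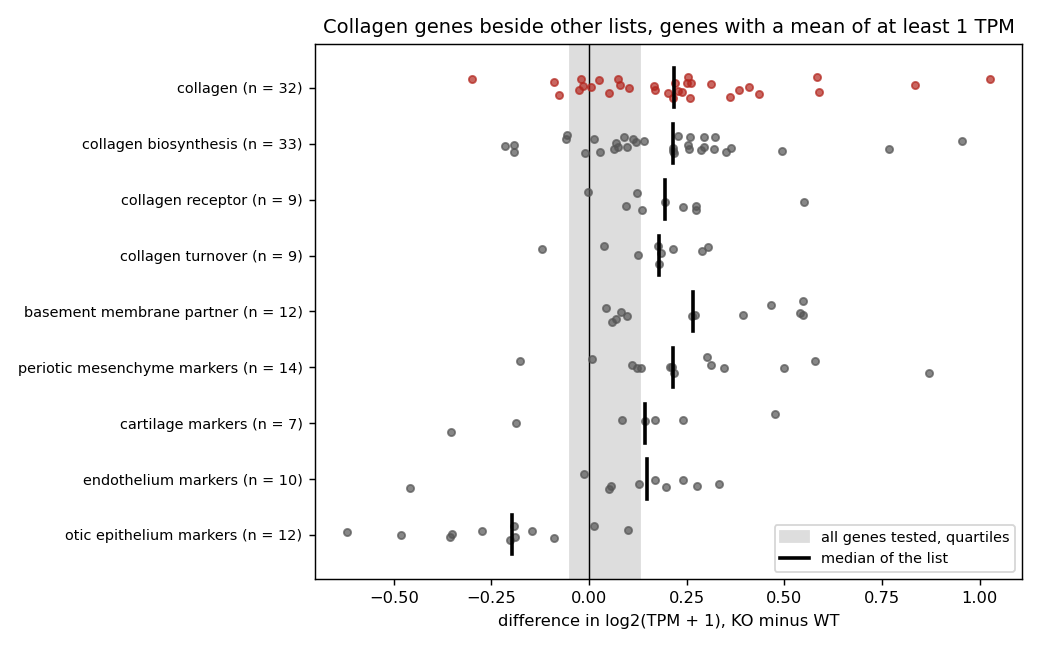
Difference in log2(TPM + 1), KO minus WT, for each gene averaging 1 TPM or more in the collagen family, 4 related lists and 4 marker lists (points, jittered vertically, black bar at the list median). The grey band spans the quartiles of all genes tested. The medians of collagen, biosynthesis, basement membrane partner and mesenchyme genes are 0.22, 0.21, 0.27 and 0.21, and that of otic epithelium markers is -0.20.

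Marker lists of several cell types are given beside the collagen genes, and limma called 0 of their genes. Of all genes tested 61.6% were higher in KO, and 50.8% with median-of-ratios scaling. Mesenchyme markers were higher in KO in 13 of 14 tested genes (12 of 14 with median-of-ratios scaling), with a median of 0.21 and without KO 1 it was -0.04, with 6 of 14 higher. The genotypes overlapped for 11 of the 14. Both KO libraries lay above both WT libraries for 2 and below for 1 (Prrx2), against 19.2% and 10.5% of all genes tested. Lum, which encodes a collagen-binding proteoglycan, had the largest difference of the 14 and was named after its values were seen. It was at 24.2 and 15.7 TPM in WT and at 42.2 and 31.6 TPM in KO. Endothelial markers were higher in 8 of 10 genes (7 of 10 with quantile normalization), with a median of 0.15 that was 0.022 without KO 1, with 6 of 10 higher. They summed to 256 and 281 TPM in WT and 316 and 257 TPM in KO. Otic epithelium markers were lower in 10 of 12 genes (11 of 12 with median-of-ratios scaling), with a median of -0.20 that stayed negative without each library in turn. The part of the mixture of tissues in the collagen values was not tested.

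Transcript length moved with the difference as well. The longest annotated transcript of the 32 members had a median of 5794 bases, and 25 of them fell among the longest of 4 equal groups of all genes tested. In that group 68.0% of genes were higher in KO, with a median of 0.05, against 52.6% and 0.01 in the group with the shortest transcripts. The median of the 32 members was 0.22, and the part of length in it was not tested.

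The promoters of the members were read from RefSeq (GRCm38.p6), which gave windows of 250 bases before to 50 after the start for 35 of the 44 genes, 38 windows in all. Of these 60.5% held the GC box GGGCGG on either strand, against 35.7% of all 32851 windows, and the median GC content was 59.8% against 52.7%. TATAAA was in 13.2% against 13.6%, CCAAT in 34.2% against 37.4%, and TGACAG, the core motif bound by Meis proteins, in 18.4% against 19.2%, all on both strands. These shares do not cover Col1a1, Col2a1, Col4a3, Col5a2, Col9a3, Col12a1, Col14a1, Col22a1 and Col26a1, which had no window. Alternative starts of Col6a2, Col9a1 and Col18a1 were counted separately, and the windows of Col4a1 and Col4a2 share 78 bases. The 250 bases before the RefSeq start are shown for Col8a2, the member with the largest difference over all 4 libraries. Matches to any of these motifs are in capitals, with overlapping matches joined.
Col8a2: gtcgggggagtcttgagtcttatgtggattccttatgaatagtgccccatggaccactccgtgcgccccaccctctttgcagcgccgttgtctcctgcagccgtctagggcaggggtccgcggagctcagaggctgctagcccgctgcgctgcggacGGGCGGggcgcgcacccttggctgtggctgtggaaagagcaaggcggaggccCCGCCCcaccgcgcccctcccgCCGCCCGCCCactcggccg
The stretch is chr4:126286544-126286793 on the plus strand, and it held 4 GC boxes and no match to the other 3 motifs. A match is a description of the letters, and no match says only that the letters are not in this window.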

How the data were processed

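RNA of 2 wild-type and 2 Meis2 mutant otic vesicle libraries was sequenced, per the labels' protocols. The authors deposited gene-level TPM, made with Salmon 0.9.1 on GRCm38 per the submitters' processing notes. The annotation release and the summing of transcripts were not given in the sources used here. Multiplying by 4 turns every nonzero value of WT 1, WT 2 and KO 1 into a whole number of steps in the sixth decimal place, and multiplying by 3 does so for KO 2 (tolerance 0.02 of that step). They look like means of 4 and of 3 values. Genes were named by ID number from GENCODE M21, which named 34582 of 34866 genes and all 44 members.

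Genes averaging 1 TPM or more over the 4 libraries entered 1 limma fit (limma 3.58.1, R 4.3.3) of log2(TPM + 1) on genotype, with the trend option. Two-sided p-values were adjusted over all genes by Benjamini-Hochberg, with a threshold of 0.05. The fit was run on simulated data with independent errors and variances drawn from its own model. That run checks the code only. It does not give power or false calls for these data, where same-numbered libraries deviated together. The smallest p of an exact test of 2 against 2 libraries is 0.333. Named genes were the 3 most abundant of each class, the 5 highest and 5 lowest differences, members below 1 TPM, chains of one protein or gene pair, and in other lists the 3 most abundant and the 2 with the smallest p. Marker lists are given by sums, medians or the range of the median instead, and the remaining members were added so that each is accounted for. The members and lists were chosen with earlier results of these data known. The alternatives were pseudocounts of 0.1 and 5, no filter, a minimum of 5 TPM, 2 other scalings, coding genes only, a replicate block and leaving out each library. The motif TGACAG was added after the data were seen.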

Additional observations from a re-analysis of the deposited data

How the results depend on the processing

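Among alternatives that kept all libraries, 202 of 210 medians and summed ratios of the members, classes and lists moved by less than the spread between libraries. The replicate block and the fit on coding genes only left these medians unchanged by construction, so they add nothing to that count. The spread was also wide where libraries of a genotype lay far apart. The median of all members was 0.2179 with the filter and 0.1075 without it, a move within its spread of 0.127. With no filter the type VI median was 0.093, the short-chain median 0.076 and the epidermis median 0.26 (-0.20 with the filter). With a mean of at least 5 TPM the epidermis median was -0.475 and the biosynthesis median 0.116. With a pseudocount of 5 TPM the biosynthesis median was 0.11 and the glia median 0.13 (0.25 otherwise). With median-of-ratios scaling the log2 ratio of the summed cartilage genes was 0.16 (0.20 without).

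Leaving out each library gave these ranges: all members 0.082 to 0.31, fibrillar 0.0028 to 0.35, FACIT 0.14 to 0.28, type IV -0.04 to 0.25, type VI 0.032 to 0.65, cartilage collagens 0.059 to 0.19, transmembrane 0.07 to 0.39, biosynthesis 0.0899 to 0.21, receptors 0.11 to 0.28, turnover 0.053 to 0.30, basement membrane partners 0.24 to 0.37, cartilage markers 0.028 to 0.25, endothelium 0.022 to 0.31, otic epithelium -0.27 to -0.17, epidermis -0.34 to 0.0497, glia 0.13 to 0.37, erythroid -0.82 to 0.41, macrophages -0.25 to 0.35. The mesenchyme median ran from -0.04 to 0.45 and that of neurons from -0.61 to 0.94. Smooth muscle ran from -0.31 to 0.068 and skeletal muscle from -0.43 to 0.014. The number of genes called was 0 to 2, and the 2 were Gm10240 and Gm6472, without KO 1. The cause was not tested.

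Same-numbered libraries deviated together (r = 0.42 over 14496 genes, across genes, which are not independent replicates), but nothing in the labels says what a number shares. With the replicate block the differences were the same, 0 genes were called, and 1178 genes had an unadjusted p below 0.05, against 507 without it. With no filter that count was 951 and without WT 2 it was 329. Of the 32 members, 6 changed sign without WT 1, 1 without WT 2, 6 without KO 1 (Col11a2, Col22a1, Col3a1, Col4a2, Col5a2 and Col6a3) and 5 without KO 2. TPM gives no depth, so precision of low members cannot be stated.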
